A study of Mus musculus with 4 samples.

Results

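Transcripts of the cytosolic ribosomal protein genes were examined in leukemic cells with and without Msi2, a Musashi gene whose product binds messenger RNA. Genes were taken by symbol: Rpl or Rps followed by a number, with the endings of the known paralogs allowed, plus Rplp0, Rplp1, Rplp2 and Rpsa. This gave 84 of the 23284 gene rows, 52 for the large and 32 for the small subunit. RNA came from sorted c-Kit high leukemic cells of C57BL/6 mice. There were 2 libraries of genotype Msi2 -/- and 2 of Msi2 flox/flox, called control here. No label ties them to separate animals, so p-values measure the spread between these libraries, which may be technical. The series title places these cells in MLL leukemia. The driver and timing of the deletion, the MLL fusion, and the age and sex of the animals are, in the sources used here, not given.

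The cytosolic ribosome carries ribosomal RNA and a fixed set of proteins in a large and a small subunit, so cells make these proteins in roughly equal amounts. Their messages belong to the TOP class, which begin with a run of pyrimidines at the cap and whose translation is set by mTOR through LARP1. MYC raises their transcription. In blood, loss of single ribosomal proteins causes inherited anemias, and free RPL5 and RPL11 bind MDM2 and so stabilize p53.

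Promoter sequences are shown because the naming rule did not use them. RefSeq start sites (GRCm38.p6) were found for 64 of the 84 genes. The letters CTTT, a short form of the TOP start, lay within 10 bases of an annotated start on the sense strand in 16 of them (25.0%), against 9.12% of 27025 genes in the table. On either strand the shares were 29.7% and 17.1%. CCGGAAG, the core of an ETS site, was in the window from 250 bases before to 50 after a start, on either strand, in 26 of 64 (40.6%), against 9.93% of all genes. CACGTG, the E-box bound by MYC, was in 6 of 64 (9.38%), against 8.09%. None of the 3 motifs contains another, and a match is a string of letters rather than a shown binding site. Below are 75 bases before and 25 after the start for 7 genes described later, with CTTT near the start or CCGGAAG in capitals. Rps6, Rplp2 and Rpl18 show the TOP-like start, Rps27l and Rpl41 the ETS core, and Rplp0 and Rpl13a neither at those positions. Rps6 and Rplp2 also held CCGGAAG in the longer window, outside the printed bases. In Rpl13a a CTTT runs past the limit of 10 bases after the start, so it was not counted or marked.
Rps6 (chr4:86857343-86857442, minus strand): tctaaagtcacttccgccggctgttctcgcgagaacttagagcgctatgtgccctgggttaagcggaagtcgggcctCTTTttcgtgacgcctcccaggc
Rplp2 (chr7:141447576-141447675, plus strand): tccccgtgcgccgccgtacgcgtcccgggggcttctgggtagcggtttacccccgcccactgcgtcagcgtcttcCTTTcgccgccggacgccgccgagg
Rpl18 (chr7:45717996-45718095, plus strand): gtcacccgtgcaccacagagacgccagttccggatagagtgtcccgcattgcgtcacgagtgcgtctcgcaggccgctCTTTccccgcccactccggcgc
Rps27l (chr9:66946011-66946110, plus strand): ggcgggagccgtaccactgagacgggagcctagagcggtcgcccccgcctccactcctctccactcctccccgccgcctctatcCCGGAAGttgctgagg
Rpl41 (chr10:128549144-128549243, minus strand): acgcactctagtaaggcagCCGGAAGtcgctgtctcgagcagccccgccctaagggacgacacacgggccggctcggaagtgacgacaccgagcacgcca
Rplp0 (chr5:115559392-115559491, plus strand): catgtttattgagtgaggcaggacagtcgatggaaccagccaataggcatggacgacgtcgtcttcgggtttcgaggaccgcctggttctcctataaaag
Rpl13a (chr7:45128721-45128820, minus strand): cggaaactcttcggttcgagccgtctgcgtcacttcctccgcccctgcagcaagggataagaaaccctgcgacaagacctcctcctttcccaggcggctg

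Each library held between 72273679 and 87564774 counts assigned to genes, and 3 counts correspond to at most 0.0412 CPM, the count relative to the TMM-scaled library total. Msi2 itself gave 2804 and 3562 counts in control libraries, compared with 8 and 17 in Msi2 -/- ones, as labelled. Xist, the transcript of the inactive X chromosome, read 1455 and 654 CPM in control libraries, compared with 0.469 and 0.624 CPM in Msi2 -/- ones, so genotype and whatever sets the Xist level, such as the sex of the animals, cannot be told apart. A number at the front of the library names is common to each group; its meaning is not stated. The summed level of 6 late neutrophil markers, all detected, was 1013 and 648 CPM in control libraries, compared with 1393 and 2217 CPM in Msi2 -/- ones. The 9 progenitor and leukemia markers, also all detected, summed to 13389 and 13674 CPM against 9306 and 14813 CPM. Erythroid markers summed to at most 1.65 CPM, with 5 of 8 listed markers, among them Hba-a1 and Hbb-b1, at or under 3 counts in every library. The part of sex and of the neutrophil markers in the differences below was not tested.

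Ribosomal protein messages took a similar part of every library. They made up 6.60% of gene counts in both controls, 6.75% in Msi2 -/- replicate 1 and 6.36% in replicate 2 (6.60% against 6.56 ± 0.276%, SD, n = 2). The controls thus lay between the Msi2 -/- libraries. In bulk RNA, fewer cells of a type and less RNA per cell cannot be told apart.

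Levels spread widely among the members. In the controls 76 of 84 stood at 100 CPM or more, up to 3261 ± 69.3 CPM for Rpl4, which lines the exit tunnel. Per kilobase of coding sequence the median was 1420 CPM, at 1295 for the large and 1962 for the small subunit. The highest levels per coding kilobase were those of Rpl41 (8339), the smallest ribosomal protein, Rplp1 (3954), Rpl13a (3483) and Rps20 (3229). Per kilobase of whole transcript they were those of Rplp1 (2710), Rpl32 (2498), Rpl8 (2445) and Rps12 (2435), so Rplp1 was among the top 4 on both scales. On this scale Rpl13a, Rpl41 and Rps20 ranked 7, 19 and 74 of the 84. The transcript used for Rps20 had 3706 bases for 357 coding ones, so such ranks depend on the length chosen.

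At the other end stood Rps27, Rpl26, Rpl34 and Rpl30, at 3.28, 5.88, 12.9 and 13.95 CPM in the control mean, although their proteins are part of every ribosome. Per coding kilobase these were 13.0, 13.5, 36.6 and 40.4 CPM. Their coding sequences had 2, 4, 3 and 6 other annotated genes of at least 98% identity over at least 90% of the length. Of the 84 members 68 had at least 1 such copy, with a median of 2. Rpl21 had 16 and stood at 1313 CPM per coding kilobase, so the number of copies did not separate the 4 low genes from the rest. The row of the pseudogene Rpl34-ps1 held more reads than Rpl34 itself, at 47.1 against 12.9 CPM in the control mean. The other pseudogene rows looked up went the other way. Rps19-ps3 read 1.93 CPM against 563 CPM for Rps19, and Rplp2-ps1 had 0 counts against 772 CPM for Rplp2. Levels of members with close copies are uncertain, since reads matching more than 1 place can be lost or split in counting.

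With Msi2 deleted, most ribosomal protein transcripts were near the control level. Rpl29 was the lowest, at 61.05% of the control level, and Rps27l was at 122.7%. Of the 82 members with enough counts to be tested, all but Rpl10l and Rpl39l, edgeR's quasi-likelihood test placed 0 higher and 0 lower with adjusted p-values below 0.05. Over all 13215 genes tested it called 0% higher and 0.00757% lower. The deleted Msi2 was itself not called, with an adjusted p of 0.122 by this test at a log2 fold change of -8.07. The 0 calls among members therefore do not show that they are unchanged. Before adjustment, p-values below 0.05 went to 1 higher and 1 lower member, Rps27l and Rpl29, where all genes gave 6.69% and 6.17%. DESeq2 called the same pair, 1 higher and 1 lower, against 3.12% and 2.73% of the genes it tested (5.84% in either direction). The edgeR likelihood ratio test called 0 higher and 1 lower, Rpl29, against 0.908% and 1.45% of all genes (2.36% in either direction), and limma-voom called 0 members and 0% of all genes.

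The middle of the family lay just above the controls. The median log2 fold change was 0.04 over the 82 members and -0.002 over all genes tested. It was 0.04 over the 736 tested genes whose mean log2 CPM was 8 or more. That abundant class includes the members at such levels, so it is not a separate set. Of the 82 members 78 (95.1%) lay within 0.2 of 0 on the log2 scale, against 54.3% of all tested genes and 73.8% of the abundant ones. The 4 outside were Rpl29, Rps27l, Rpl41 and the barely expressed Rpl3l. The SE of a member's log2 fold change had a median of 0.07, and the 95% interval for 77 of 82 lay within 0.5 of 0. The groups did not overlap in 34 members that were higher and 5 that were lower in Msi2 -/-, where 23.7% and 24.6% of all tested genes did so (48.3% together). Of the 736 abundant genes 258 were higher and 104 lower without overlap, so these also leaned to the higher side. With TMM 448 of the abundant genes were above 0 and 288 below. With the same scaling 67 members were above 0 and 15 below. This split rests on scaling, since it was 53 and 29 with upper-quartile scaling and 47 and 35 with total counts alone, where the median was 0.01 for the members and -0.04 for all genes.

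**Figure D1:**
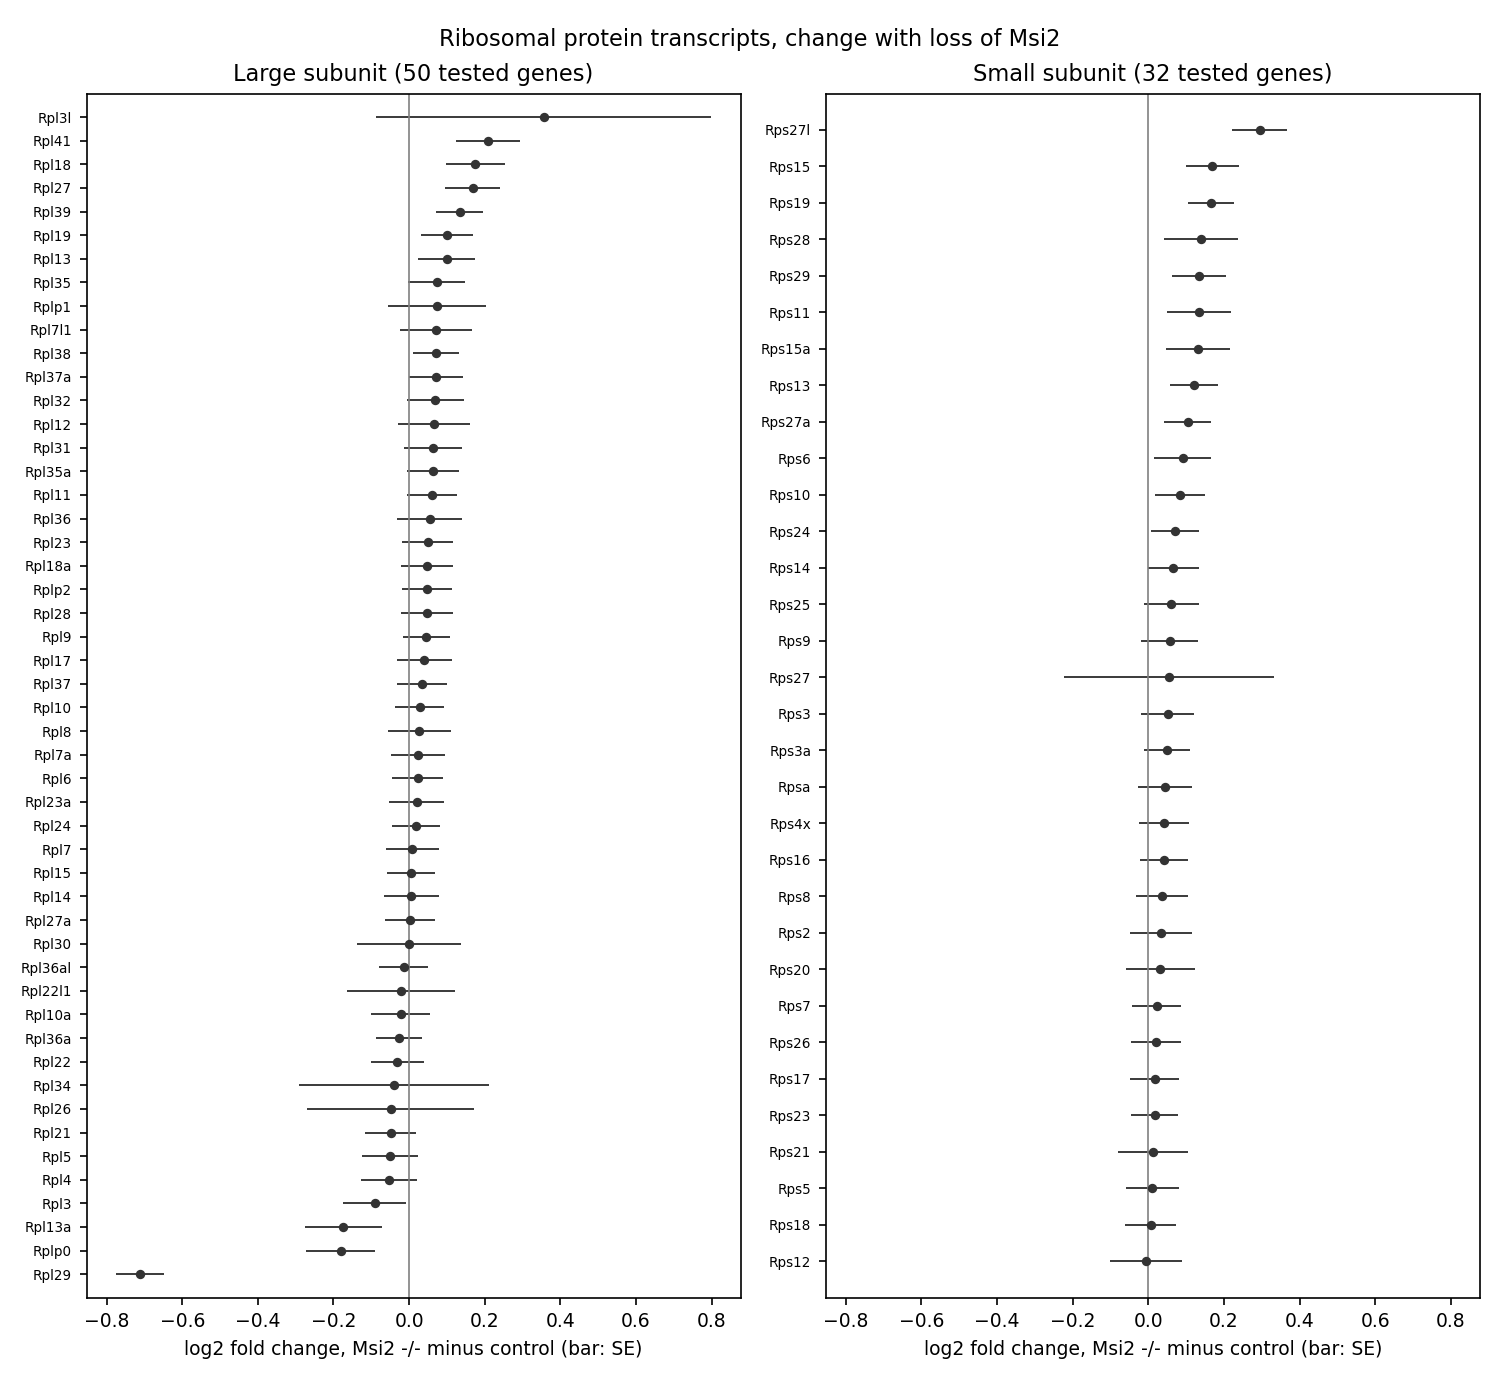
Log2 fold change (horizontal axis, Msi2 -/- minus control, bars are SE) of each tested ribosomal protein gene (vertical axis), 50 for the large and 32 for the small subunit, each ordered by fold change. Rpl29 at -0.71 stands apart from the other genes, and in the small subunit 31 of 32 points lie above 0 with TMM scaling (22 with total counts alone).

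Rpl29 encodes a small basic protein on the surface of the large subunit, also known as a heparin-binding protein. It measured 555 and 548 CPM without the deletion, 340 and 333 CPM with the deletion. Both Msi2 -/- libraries were far below both controls, and the libraries of a group were close to each other. The level with Msi2 deleted was 61.05% of the control level, a log2 fold change of -0.71 (SE 0.063, 95% interval -0.88 to -0.54). The adjusted p was 0.241 by edgeR's quasi-likelihood test, 2.27e-23 by DESeq2 and 1.2e-05 by edgeR's likelihood ratio test. The next lowest member, Rplp0, had a log2 fold change of -0.18 (SE 0.092), which was -0.08 without control 1 and -0.27 without control 2. With any 1 library left out, Rpl29 lay between -0.72 and -0.70. Its coding sequence had 7 annotated copies of at least 98% identity, none identical over its whole length, so part of its reads may be shared with them.

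The stalk of the large subunit, which recruits the elongation factors, is built from RPLP0 and the acidic proteins RPLP1 and RPLP2. Rplp0 had 2375 and 2087 CPM with Msi2 intact and 1978 and 1957 CPM without it. The groups did not overlap, but the controls differed by more than control 2 did from the Msi2 -/- libraries (edgeR adjusted p = 0.469). Rplp1 read 1367 and 1338 CPM, compared with 1583 and 1261 CPM, with the Msi2 -/- libraries on either side of the controls. Rplp2 was nearly level, at 772 CPM in both controls against 813 and 782 CPM.

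Rpl13a, whose protein also takes part in silencing of inflammatory messages, was among the lowest after Rpl29. It read 2048 and 2195 CPM in control libraries, compared with 2013 and 1747 CPM in Msi2 -/- ones (log2 difference -0.17 ± 0.102 SE, adjusted p by edgeR 0.521). Msi2 -/- replicate 1 was close to control 1, and replicate 2 was lower. The log2 difference was -0.07 without Msi2 -/- replicate 2 and -0.27 without replicate 1. Rpl3, which lies by the peptidyl transferase center, and Rpl4 differed by -0.09 (SE 0.083) and -0.05 (SE 0.074) on the log2 scale, with overlapping groups. Single libraries decided these values: that of Rpl3 was -0.16 without control 1 and -0.01 without control 2, and that of Rpl4 was -0.08 without Msi2 -/- replicate 1, -0.03 without control 2 and -0.02 without Msi2 -/- replicate 2.

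The 5S particle genes, whose proteins restrain MDM2, had intervals that include 0. Rpl5 measured 558 and 561 CPM without the deletion, 518 and 563 CPM with the deletion, so the groups overlapped. Rpl11 read 743 and 769 CPM, compared with 778 and 800 CPM. The 95% intervals of their log2 fold changes ran from -0.25 to 0.15 and from -0.12 to 0.24.

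Among large subunit genes on the high side, Rpl41 had 631 and 620 CPM with Msi2 intact and 765 and 682 CPM without it (log2 difference 0.21 ± 0.085 SE, adjusted p by edgeR 0.407). Rpl18, a surface protein gene, read 937 and 944 CPM, compared with 1111 and 1012 CPM (log2 difference 0.18 ± 0.079 SE, adjusted p by edgeR 0.432). In both, Msi2 -/- replicate 1 was the highest library and the groups did not overlap. With 1 library left out, the log2 differences ran from 0.13 to 0.29 for Rpl41 and from 0.11 to 0.24 for Rpl18. The X-linked genes Rpl10, Rpl36a, Rpl39 and Rps4x had log2 fold changes of 0.03, -0.03, 0.13 and 0.04, within the range of the other members. The part of the Xist difference in these values was not tested.

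In the small subunit 31 of 32 genes lay above 0 (median log2 difference 0.05), and 0 passed edgeR's threshold. With upper-quartile scaling 24 and with total counts alone 22 of the 32 lay above 0. For 18 of the 32 both Msi2 -/- libraries lay above both controls, and for 0 below, where all tested genes gave 23.7% and 24.6%. Among the 736 tested genes with a mean log2 CPM of 8 or more, 258 lay above and 104 below in this way. These counts were made with TMM scaling only. Rps19, the gene most often mutated in Diamond-Blackfan anemia, read 566 and 561 CPM in control libraries, compared with 631 and 632 CPM in Msi2 -/- ones. Its replicates were close and its groups apart, with a log2 fold change of 0.17 (SE 0.062, edgeR adjusted p = 0.393, DESeq2 adjusted p = 0.0904). Rps15, an assembly factor of the head of the subunit, read 995 and 992 CPM, compared with 1152 and 1082 CPM (log2 difference 0.17 ± 0.071 SE, adjusted p by edgeR 0.415).

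Rps14, the gene of the 5q- anemia, read 933 and 969 CPM, compared with 1007 and 984 CPM. Rps6, whose protein is phosphorylated by S6 kinase, read 681 and 707 CPM, compared with 769 and 709 CPM. Rpsa, which encodes the laminin receptor protein, read 2213 and 2330 CPM, compared with 2335 and 2347 CPM. In these 3 genes the lower Msi2 -/- library exceeded the higher control by less than the 2 controls differed from each other.

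**Figure D2:**
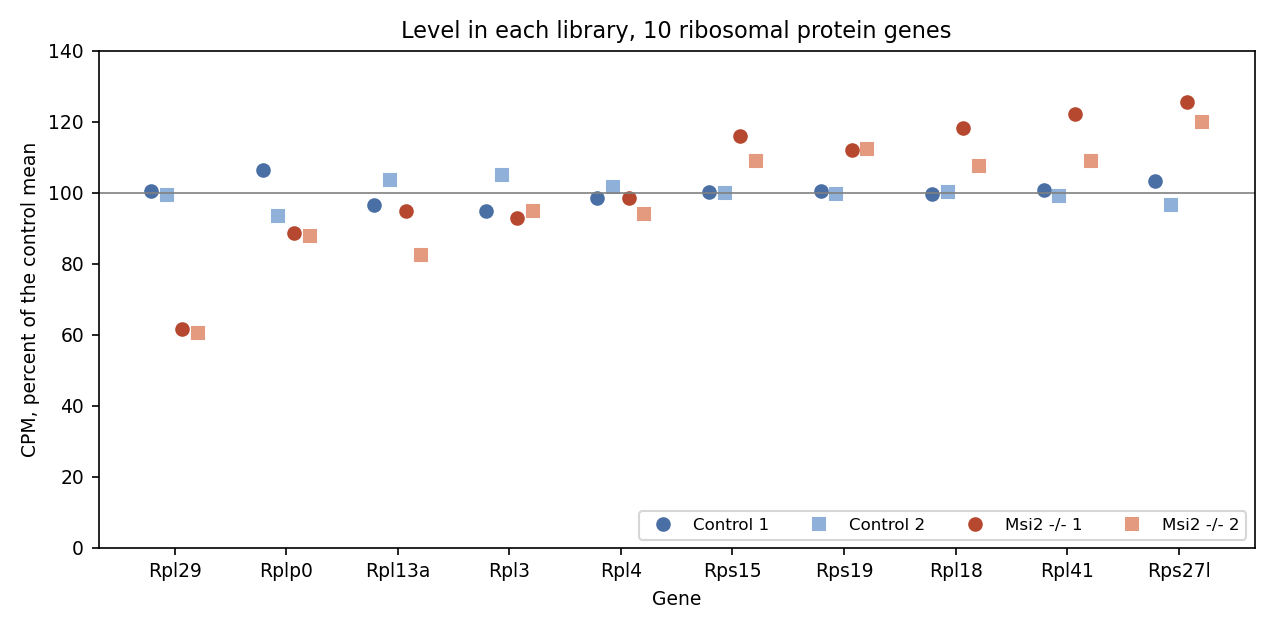
CPM of 10 ribosomal protein genes in each library, as percent of the control mean (vertical axis starts at 0). Rpl29 is at about the same low level in both Msi2 -/- libraries, while Rplp0, Rpl13a, Rpl3 and Rpl4 have a spread among replicates close to the difference between groups.

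The balance between the subunits differed between genotypes by more than between replicates. Large subunit counts were 1.353 and 1.350 times the small subunit counts in the controls and 1.304 and 1.293 times in Msi2 -/- replicates 1 and 2 (1.35 ± 0.00258 against 1.30 ± 0.0079, SD, n = 2). The groups did not overlap, and the ratio does not depend on library scaling. With 2 libraries a side the smallest two-sided exact permutation p is 0.333, so no test was run. The ratio was also computed without the large subunit genes of the lowest fold changes, a choice that by construction shrinks the difference. Leaving out Rpl29 gave 1.333 and 1.330 against 1.293 and 1.281, and leaving out Rplp0 and Rpl13a as well gave 1.173 and 1.176 against 1.157 and 1.151. Without the 5 lowest members, which adds Rpl3 and Rpl4, it was 1.004 and 0.999 against 0.998 and 0.991, so the groups lay just apart. As medians over genes, the large subunit stood at 0.03 and the small at 0.05.

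**Figure D3:**
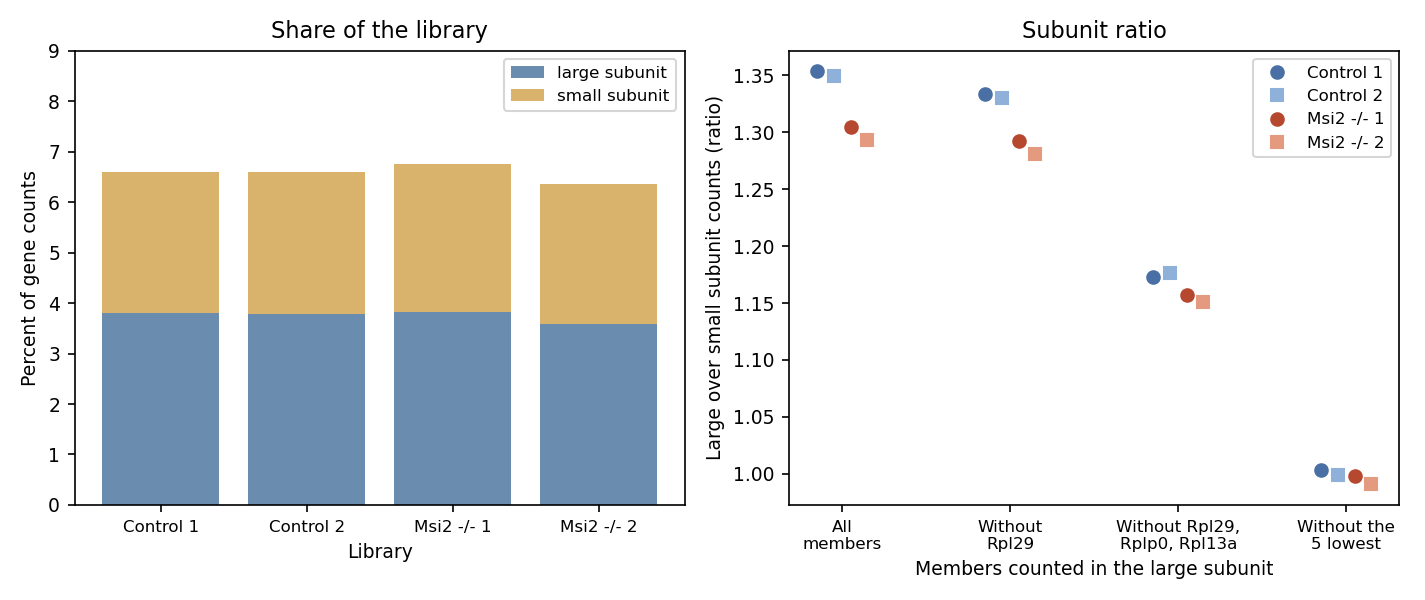
Left, percent of gene counts taken by large and small subunit genes in each library (bars stacked from 0). Right, large over small subunit counts in each library, with all members and with the lowest large subunit genes left out; the axis does not start at 0, and the gap of 0.053 between group means shrinks to 0.0069 without the 5 lowest.

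Several ribosomal proteins have a second gene, often expressed in particular tissues. Rps27l, a paralog of Rps27 known as a target of p53, was the member with the highest log2 fold change apart from the barely expressed Rpl3l. It measured 208 and 195 CPM without the deletion, 253 and 242 CPM with the deletion. Both Msi2 -/- libraries were above both controls by more than replicates differed (log2 fold change 0.29, SE 0.073, 95% interval 0.099 to 0.49). DESeq2 gave an adjusted p of 0.0177, and the quasi-likelihood test of edgeR gave 0.324. Its coding sequence had 0 annotated copies of at least 98% identity. Rps27 itself read 3.17 and 3.39 CPM, compared with 3.92 and 2.89 CPM, and since a gene of identical coding sequence, Rps27rt, exists, the ratio of this pair is not interpreted.

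The other expressed paralogs had proportions to the partner that overlapped between the groups. Rpl22l1, which can replace RPL22 and is held down by it in some cells, had 0.278 and 0.263 reads per Rpl22 read in the controls and 0.306 and 0.239 in Msi2 -/- replicates 1 and 2. The Msi2 -/- libraries lay on either side of the controls, at 23.4% (exact 95% interval 23.1 to 23.8%, counting error only) and 19.3% (18.9 to 19.6%) of the reads of the pair. Rpl7l1 had 0.170 and 0.164 reads per Rpl7 read against 0.182 and 0.166. Rpl36al, an intronless copy of the X-linked Rpl36a, had 0.647 and 0.632 against 0.632 and 0.659. Coding sequences of these pairs shared 68.2%, 54.0% and 87.7% of aligned bases. Coding lengths within a pair were 366 and 384, 738 and 810, and 318 and 318 bases. Rpl36al and Rpl36a each had 1 annotated copy of 100% identity over at least 90% of the length. Rpl22l1 and Rpl7 each had 1 of at least 98% identity. Reads of these pairs may therefore be shared with copies, and the ratios are uncertain.

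The tissue-restricted paralogs were at or near 0. Rpl3l, a muscle gene, gave 23 and 22 counts in control libraries and 27 and 34 in Msi2 -/- ones, against at least 113234 for Rpl3 in each library (log2 fold change 0.36, SE 0.442, but 0.08 without Msi2 -/- replicate 2 and 0.60 without replicate 1). Rpl39l, known from testis, had 10 counts in control 2 and 0 in the other libraries. Rpl10l, also a testis gene, had 0 counts in all libraries, which allows up to 3 counts or 0.0412 CPM in the shallowest library. Rps4y2 had 4 counts in control 2 and 0 elsewhere. Rps4l was not analysed here under that symbol.

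**Figure D4:**
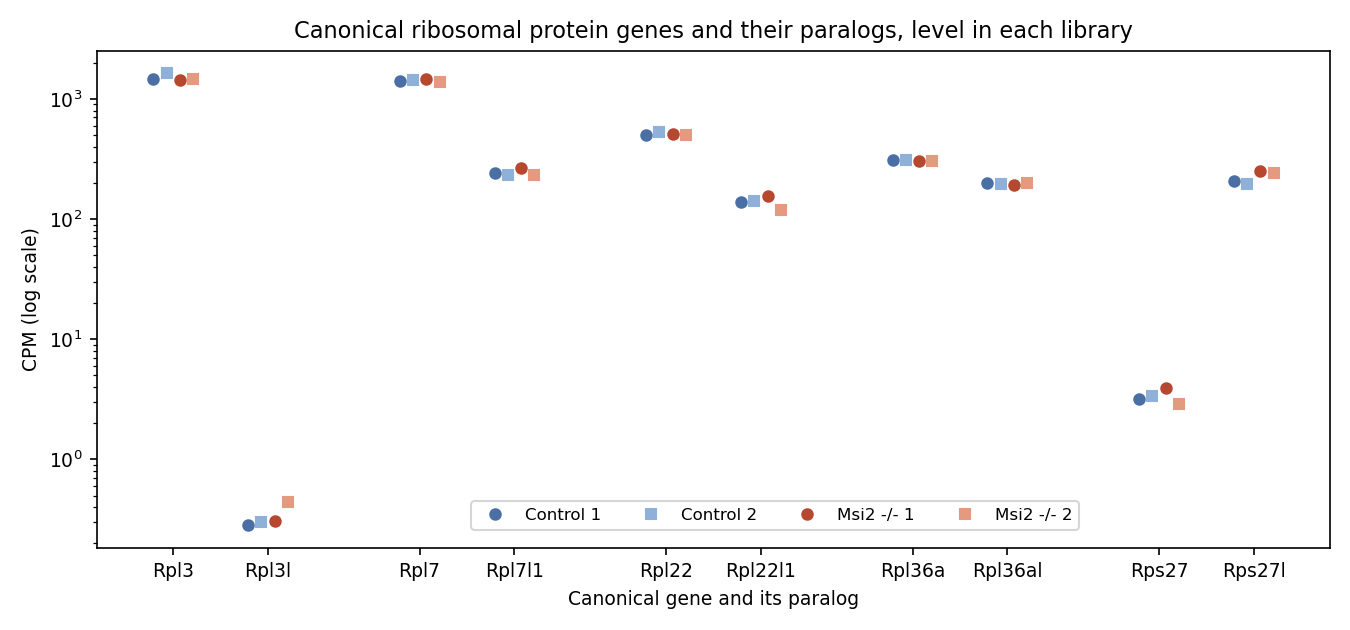
CPM (log scale) of canonical ribosomal protein genes and their paralogs in each library. Rps27l lies higher in both Msi2 -/- libraries, Rpl22l1 is spread on both sides of the controls, and Rps27 is counted far below its paralog.

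Among ribosomal proteins outside the naming rule, Fau, which encodes RPS30 fused to a ubiquitin-like protein, differed by 0.15 (SE 0.075) on the log2 scale, with an edgeR adjusted p of 0.469. Gnb2l1, the older symbol of Rack1, a scaffold protein on the small subunit, differed by 0.02 (SE 0.068), with an edgeR adjusted p of 0.937. Of 20 measured other TOP messages, such as those of elongation and initiation factors, edgeR called 0 and DESeq2 0 higher and 1 lower, with a median of -0.02. Of 21 genes for mTOR signalling, message control and ribosome assembly edgeR called 0 and DESeq2 0 higher and 1 lower, which was Myc, with a median of -0.07. Myc had 407 and 489 CPM with Msi2 intact and 285 and 322 CPM without it (log2 difference -0.56 ± 0.125 SE, adjusted p by edgeR 0.308).

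Mitochondrial ribosomal proteins, encoded by a separate nuclear gene family, were compared over 76 tested genes. Their median was -0.03, with 31 above and 45 below 0, against 67 above and 15 below 0 for the cytosolic members. EdgeR called 0 of them, and DESeq2 called 0 higher and 2 lower. Their range ran from -0.40 to 0.28, without a gene as far out as Rpl29, and the difference between the families was not tested.

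The libraries of a group also differed among themselves. Between the controls, the members' log2 ratios of control 1 over control 2 had a median of -0.003 and an SD of 0.073, and between Msi2 -/- replicates 1 and 2 a median of 0.04 and an SD of 0.135. Set against the mean of both controls, the members had a median of 0.06 in the Msi2 -/- library numbered 1 and of 0.02 in the other. In both genotypes Rpl34 had the largest ratio, at 0.31 and 0.53.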

How the data were processed

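The authors deposited raw read counts per gene symbol for 4 libraries, 2 per genotype. The submitters' processing notes list Trimmomatic, STAR, HTSeq, DESeq and mm9 and no versions. Which annotation and strand setting were used, and how reads with several matches were handled, is, in the sources used here, not given. Of all counts, 19.1 to 20.1% fell in 5 closing rows that name no gene and were left out. Replicates differed far beyond sampling noise (chi-square per gene 51.7 for controls and 125 for Msi2 -/-), so each counts as 1 sample.

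The main test was edgeR 4.0.16 under R 4.3.3 (filterByExpr with minimum count 10 and minimum total 15, TMM, quasi-likelihood test, group as the only term, two-sided, Benjamini-Hochberg over 13215 genes). SE come from the F statistic. DESeq2 1.42.0 and limma 3.58.1 (voom) were alternatives, as were other scalings and filters, a likelihood ratio test, a replicate block and leaving out each library. The edgeR, DESeq2 and voom steps were tested on simulated counts. Coding lengths, near-identical copies (BLAST 2.17.0) and paralog identity (Biopython 1.88) come from GENCODE vM21 sequences; the protein table planned for lengths was not used here. Promoters come from the RefSeq table of GRCm38.p6. Coordinates printed are those of that build, not of mm9.

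Members and lists were chosen with earlier results of these data known. Named genes were those past an adjusted p of 0.05, the 5 highest and 5 lowest fold changes, the 4 highest levels per coding length, members at or under 3 counts, fixed paralog pairs, stalk, 5S particle, Rpsa, Rps6, Rps14, Rps19, Fau, Gnb2l1, Myc and Msi2. A gene of this rule is not reported here. Other genes named were chosen after their values were seen. Marker lists for B cell, T cell, platelet and stroma and vessel summed to at most 26.7, 10.0, 4.46 and 167 CPM in any library.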

Additional observations from a re-analysis of the deposited data

How the results depend on the processing

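Rpl29 had a log2 fold change between -0.75 and -0.70 in every alternative run, with an adjusted p from 2.27e-23 to 0.889. The count of members called higher was 1 by DESeq2, and the count called lower was 1 by DESeq2 and 1 by the likelihood ratio test, against 0 in the main test and in all other alternatives. With total counts only, the medians of all members, the large and the small subunit were 0.0101, -0.00302 and 0.0197. Leaving out each library in turn, they ran from 0.0264 to 0.0654, 0.0156 to 0.0461 and 0.0483 to 0.0851. The difference in subunit ratio ran from -0.0585 to -0.0474 with 1 library left out. It was -0.0447 without Rpl29, -0.0211 without Rpl29, Rplp0 and Rpl13a, and -0.0069 without the 5 lowest members. These 3 sets, and the whole-transcript length scale, were chosen after seeing the data.

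The sign of small log2 fold changes turned for some genes. With total counts only they were -0.0017 for Rps20, -0.0255 for Rpl7, -0.0064 for Rpl10 and -0.0176 for Gnb2l1. With upper-quartile scaling they were -0.0136 for Rpl7 and -0.0057 for Gnb2l1. Leaving out each library in turn gave -0.0917 to 0.228 for Rplp1, -0.0552 to 0.123 for Rps20, -0.0279 to 0.173 for Rpl7l1 and -0.0192 to 0.0454 for Rpl7. It gave -0.214 to 0.155 for Rpl22l1, -0.0763 to 0.0207 for Rpl22, -0.0438 to 0.0238 for Rpl36al, -0.175 to 0.260 for Rps27 and -0.109 to 0.0169 for Rpl5. The cause was not tested.

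With the replicate block 0 members were called higher and 0 lower, as without it. Deviations from the group mean correlated at 0.0393 over 13215 genes between libraries of the same replicate number. With 2 libraries per group both replicate numbers give this same value, so it cannot settle whether the libraries were prepared in pairs. Low counts left Rpl10l and Rpl39l untested, and Rpl3l had 22 to 34 counts per library.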

Other observations

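The genes beside Rpl29 in the gene order of the RefSeq table were looked up after its value was seen. Dusp7, a phosphatase gene next to it, read 47.3 and 44.7 CPM in control libraries, compared with 24.4 and 32.9 CPM in Msi2 -/- ones (log2 difference -0.68 ± 0.173 SE, adjusted p by edgeR 0.333). Poc1a, a centriole gene beyond it, read 92.9 and 83.6 CPM, compared with 68.7 and 67.2 CPM (log2 difference -0.38 ± 0.080 SE). On the other side Acy1, an aminoacylase gene, read 70.2 and 64.7 CPM, compared with 81.8 and 75.2 CPM (log2 difference 0.22 ± 0.085 SE). Beyond Acy1, Abhd14a and Abhd14b each had a log2 difference of -0.34, with SE of 0.125 and 0.128. The adjusted p by edgeR was 0.303 for Poc1a, 0.401 for Acy1, 0.384 for Abhd14a and 0.396 for Abhd14b. Of the 8 nearest tested genes, which also include Alas1, Pcbp4 and the barely expressed Tlr9, 6 had a log2 difference below 0. Over all 13215 tested genes 6641 did so.

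Across the 82 tested members, longer coding sequences went with lower log2 fold changes (Spearman rho -0.254, Pearson r -0.143, n = 82 genes that share the same 4 libraries). The log2 ratio of control 1 over control 2 also ran with coding length (rho -0.432, r -0.381). The median coding length was 476 bases for the large and 446 bases for the small subunit. The part of length in the subunit ratio was not tested.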
